A study of Homo sapiens with 3 samples.

Results

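Genes whose mRNAs are abundant in the cytoplasm were followed in a PAR-CLIP of CTCF, as a contrast to RNAs that stay in the nucleus. The 10 genes, chosen by name, were ACTB and ACTG1 for the cytoplasmic actins, TUBB and TUBA1B for tubulins, GAPDH, ENO1 and PKM for glycolytic enzymes, FTH1 and FTL for the ferritin chains, and TPT1 for translationally controlled tumour protein. All 10 were among the 17201 genes of the deposited table. The sample was U2OS, a human osteosarcoma cell line, given 400 µM 4-thiouridine for 16 to 24 h and irradiated with 400 mJ/cm2 of ultraviolet light at 365 nm. CTCF, a zinc-finger DNA-binding protein of chromatin loops, was precipitated from lysates of isolated nuclei, and the RNA crosslinked to it was sequenced. The labels give 2 biological replicates, precipitated with different lots of 1 antibody, and their merge, which alone had a file used here. Each gene therefore has 1 value, with no replicate error, no control precipitation and no test. Levels of these RNAs in U2OS cells were not analysed here, so recovery with CTCF and abundance in the lysate cannot be told apart.

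Actin filaments and microtubules, built from actin and tubulin subunits, give a cell its shape and its tracks for transport. Glycolysis turns glucose into pyruvate, and ferritin stores iron in a shell of heavy and light chains. Their mRNAs are made in the nucleus, exported quickly and found mostly in the cytoplasm, whereas RNAs such as MALAT1 and NEAT1 stay in the nucleus.

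Counts are whole numbers per gene interval in the authors' table, on hg19. Over all listed genes they ranged between 6 and 6801, with a median of 31 and quartiles of 13 and 82, and summed to 1322047. Intervals given with counts are exact 95% Poisson intervals, those on shares are exact 95% Clopper-Pearson intervals, and both cover counting error only. The cell line label was checked on markers. Of 11 osteosarcoma and mesenchymal markers, 7 were listed, while SPP1, BGLAP, SP7 and COL1A2 were not. FN1 had 1277 counts, CD44 632, COL1A1 602 and SPARC 260. RUNX2 had 164 over 219 kb, VIM 67 over 1.69 kb and ALPL only 8 over 69.0 kb. None (0) of 4 blood and none (0) of 3 liver markers were listed. Of 3 epithelial markers 2 were listed, KRT18 with 146 counts over 3.93 kb and CDH1 with 13 over 98.3 kb. All 3 neuronal markers were listed, at 38 to 144 counts in intervals with a median length of 393 kb. Against listed genes of similar length, as explained below, the listed osteosarcoma markers had a median ratio of 7.43 and the neuronal ones 0.974. Single genes departed from this, with ALPL at 0.129, RUNX2 at 1.58, KRT18 at 8.59 and the neuronal gene SYT1 at 1.44.

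The abundant mRNA genes were not uniformly high. Actin, beta-tubulin and glycolytic genes had 254 to 786 counts each, and the ferritin genes had fewer than the median listed gene. The 10 counts summed to 2846, or 0.215% of the summed count (0.207 to 0.223%), and the highest was 39.3 times the lowest. Both actin genes together gave 1244 of these counts, or 43.7%, and both ferritin genes gave 45. Of the 10 genes, 6 had 100 counts or more, against 20.5% of all listed genes, and TUBA1B fell just short with 99. Their median count was 264. In order of counts, ENO1 and ACTG1 had overlapping intervals, as did TUBB, GAPDH and PKM in turn, and FTH1 and FTL.

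**Figure D1:**
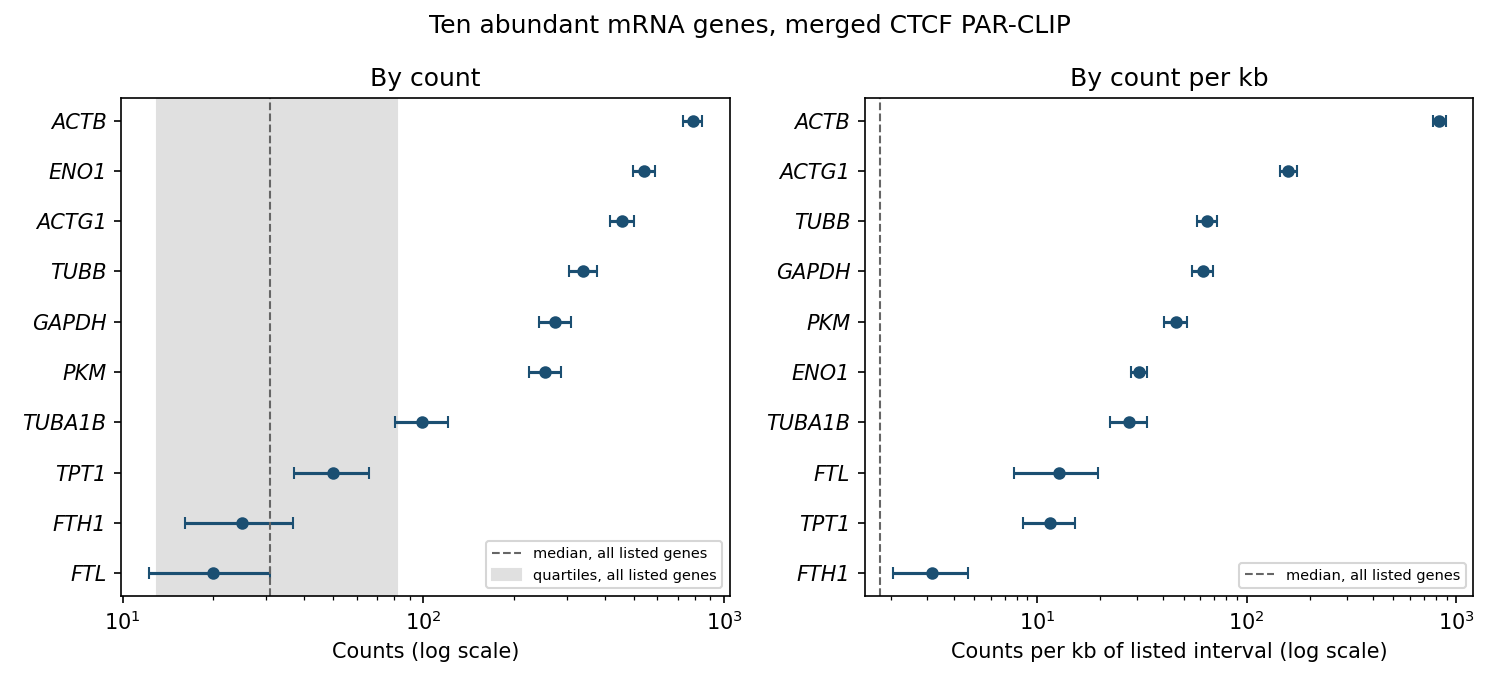
Counts (left) and counts per kb of listed interval (right) of the 10 genes on log axes, with exact 95% Poisson intervals from the 1 merged sample. Dashed lines mark the medians of all listed genes and grey the quartiles of their counts (13 to 82). ACTB is highest on both scales, and FTH1 and FTL lie below the median count of 31.

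Longer intervals collect more counts, and the intervals of these genes ran from 0.948 to 17.7 kb, so each gene was also set against listed genes of similar length. For this the table was divided into 50 groups by length, with 344 genes in each group used here. All 10 genes had more counts than the median of their group, against 49.2% of all listed genes. At least 4 times the group median was reached by 7 of the 10, against 10.1% of all listed genes. The exceptions were TPT1, FTL and FTH1. The median of the 10 genes was 16.0 times the group median, at the 98.5th percentile for length. Of the 6 that overlap no other listed gene, 3 reached it when such genes alone were compared, against 10.8% of those.

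Beta-actin and gamma-actin, encoded by ACTB and ACTG1, are nearly identical proteins. ACTB had 786 counts (732 to 843) in an interval of only 0.948 kb on chromosome 7 (5566782 to 5567729). That is shorter than the coding sequence of an actin, so the count covers a piece of the gene. It was the highest count of its length group, at 60.5 times the group median of 13, and amounted to 829 counts per kb (772 to 889). By counts per kb ACTB came first of the 12220 listed protein-coding genes and 9th of all listed genes. Only 77 protein-coding genes had an interval under 1 kb, and ACTB was the 1 of them with 100 counts or more. EMC6, for a subunit of a membrane protein complex, followed there with 90. The nearest protein-coding genes to ACTB in counts per kb within its length group were TMSB10, for an actin-binding thymosin, at 86.9 per kb and UQCC4 at 71.0 per kb.

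ACTG1 had 458 counts (417 to 502) over 2.90 kb of chromosome 17 (79476997 to 79479900). This was 158 counts per kb (144 to 173), well below ACTB, and the intervals of these values do not overlap. ACTG1 ranked 9th among protein-coding genes per kb, and its count was 30.5 times the median of its length group. CCN1, for a matricellular protein, was near it per kb within its length group, at 101. Because the actin coding sequences are so alike, the authors' alignment could have divided reads between them, and how reads with several matches were treated is not given in the sources used here.

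Short stretches in or beside the actin genes are listed separately and were denser than the rest. Inside the ACTG1 interval, bases 1056 to 1139 from its lower-coordinate end are listed as a gene annotated as miRNA (ENSG00000266077), with 88 counts (70.6 to 108). These 84 bases make up 2.89% of the interval and held 19.2% of its counts (15.7 to 23.1%). The stretch had 1048 counts per kb, against 131 per kb in the rest of ACTG1. A second such gene of 84 bases (ENSG00000263900) starts 4 bases beyond the end of the ACTB interval and had 109 counts (89.5 to 131), or 1298 per kb, against 829 per kb in the ACTB interval. The third (ENSG00000266700) lies within the actin pseudogene ACTG1P10 on chromosome X, at bases 203 to 286 of it, and had 74 counts (58.1 to 92.9). There it held 92.5% of the pseudogene's 80 counts (84.4 to 97.2%), and the rest of the pseudogene held 6.

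These were the 3 highest of the 18 listed genes annotated as miRNA, and the next, which lies inside DDX5, had 39. They carry no symbol in the name table used here. The third was singled out after the counts had been seen. A read that overlaps a short stretch only in part may enter its count, so the density of 84 bases is overstated relative to a long interval by an amount that depends on read length, which is not given in the sources used here. Whether the counts are mature miRNA, precursor or actin mRNA was not tested, since the table has neither read positions nor strand.

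**Figure D2:**
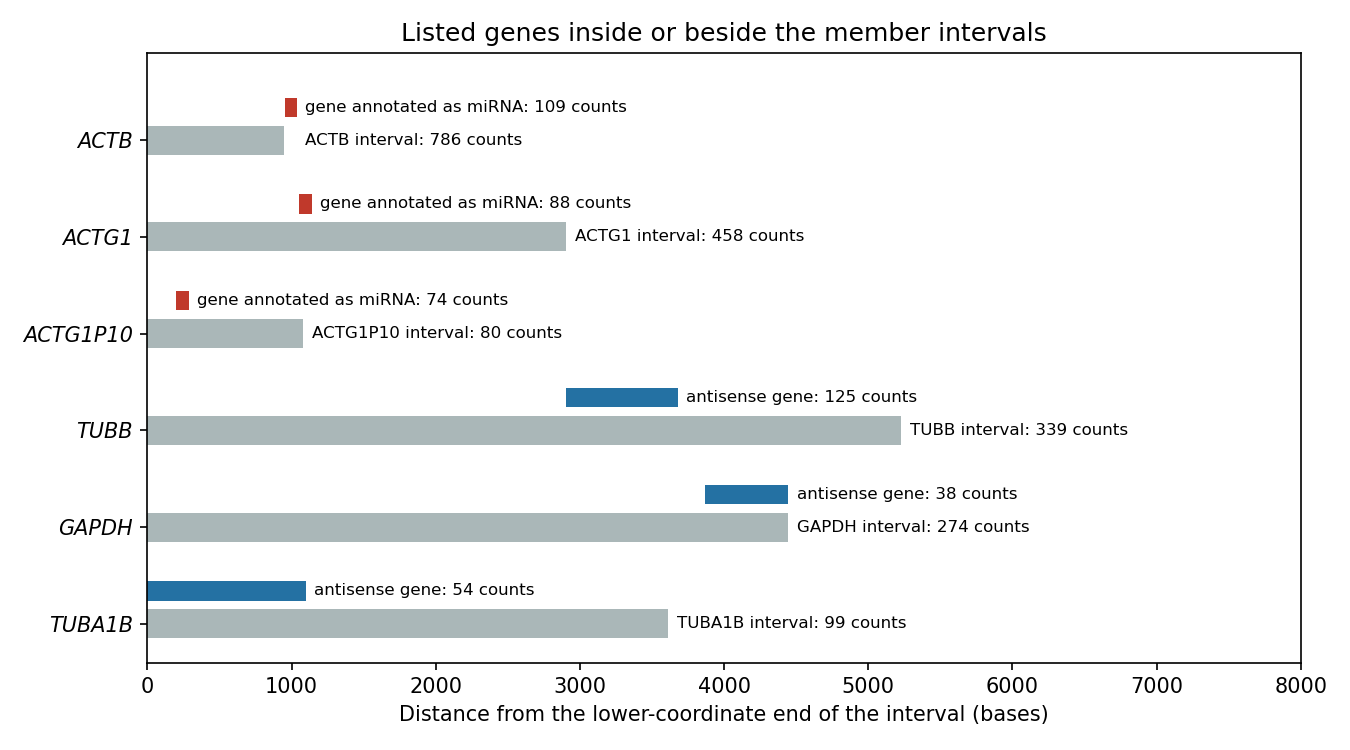
Maps of 5 gene intervals and of the actin pseudogene ACTG1P10, drawn to scale in bases from the lower-coordinate end (grey), with the listed gene that lies inside or beside each. Red marks genes annotated as miRNA (109, 88 and 74 counts) and blue antisense genes (125, 38 and 54 counts). The miRNA gene beside ACTB lies outside the listed interval, the others inside.

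Tubulin alpha and beta chains form the microtubule subunit. TUBB, a beta chain, had 339 counts (304 to 377) over 5.23 kb of chromosome 6 (30687978 to 30693203), or 64.9 per kb and 21.2 times the median of its length group. TUBA1B, an alpha chain, had 99 counts (80.5 to 121) over 3.61 kb of chromosome 12 (49521565 to 49525178), or 27.4 per kb and 5.82 times the group median. The beta chain gene was thus above the alpha chain gene on every one of these scales. Nearest to TUBB per kb were HGS, for an endosomal sorting protein, at 50.7 and PKM at 45.9. Nearest to TUBA1B were HACD2, for a fatty acid elongation enzyme, at 27.7 and TRIM28, for a chromatin corepressor, at 29.7.

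Part of both tubulin counts lies where an antisense gene is listed. TUBA1B-AS1 covers 30.4% of the TUBA1B interval and had 54 counts, which equals 54.5% of the TUBA1B count (44.2 to 64.6%). The antisense gene inside TUBB (ENSG00000272540, 773 bases) covers 14.8% of it and had 125 counts, or 36.9% of the TUBB count (31.7 to 42.3%). In each pair the shared stretch was denser than the rest of the gene, at 49.2 against 17.9 counts per kb in TUBA1B and at 162 against 48.1 in TUBB. Whether strand was used in counting is not given in the sources used here, so sense and antisense RNA cannot be told apart in these stretches.

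The 3 glycolytic enzymes act in the later, energy-yielding steps of the pathway. ENO1, the enolase that makes phosphoenolpyruvate, had 541 counts (496 to 589) over 17.7 kb of chromosome 1 (8921061 to 8938749). GAPDH, which oxidises glyceraldehyde 3-phosphate, had 274 (243 to 308) over 4.45 kb of chromosome 12 (6643093 to 6647537). PKM, the pyruvate kinase, had 254 (224 to 287) over 5.53 kb of chromosome 15 (72491370 to 72496900). By count ENO1 came first and the intervals of GAPDH and PKM overlap.

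Per kb of listed interval the order changed, with GAPDH at 61.6, PKM at 45.9 and ENO1 at 30.6. No 2 of these counting intervals overlap. How much of each gene its listed interval covers was not computed here, so this order holds for the listed intervals only. Against genes of similar length ENO1 stood at 21.6 times the median, GAPDH at 16.1 times and PKM at 15.9 times. ENO1 had as its neighbours per kb VCP, for a segregase ATPase, at 26.1 and the chaperonin gene CCT5 at 25.9. For GAPDH they were the ribosomal protein gene RPL13A at 54.3 and AMIGO2, for an adhesion protein, at 72.1, and for PKM they were HGS at 50.7 and ADPRS, for a hydrolase of ADP-ribose, at 41.3. An antisense gene (ENSG00000269968, 577 bases) inside GAPDH had 38 counts, or 13.9% of the GAPDH count (10.0 to 18.5%). Its density of 65.9 counts per kb was close to the 61.0 per kb in the rest of GAPDH, unlike in the tubulin genes. IFFO1, 589 bases beyond GAPDH, had 6 counts.

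The ferritin genes and TPT1 had the lowest counts of the 10. FTH1, the heavy chain that oxidises iron, had 25 counts (16.2 to 36.9) over 7.91 kb of chromosome 11 (61727190 to 61735103), or 3.16 per kb. FTL, the light chain, had 20 counts (12.2 to 30.9) over 1.58 kb of chromosome 19 (49468558 to 49470135), or 12.7 per kb. Their counts do not differ beyond counting error. FTH1 stood at 1.25 times and FTL at 1.54 times the median of genes of similar length, at the 56.0th and 65.6th percentiles. FTH1 shared its level per kb with FHIP2B at 3.17 and the zinc-finger gene ZNF205 at 3.14, and FTL shared its level with the ribosomal protein gene RPL41 at 13.3 and CHCHD1, for a mitochondrial ribosome protein, at 13.6.

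TPT1 had 50 counts (37.1 to 65.9) over 4.34 kb of chromosome 13 (45911008 to 45915347), or 11.5 per kb, at 2.94 times the median of its length group. RANBP6, for a relative of nuclear import receptors, was nearest per kb at 11.6, and OSGEP, for a tRNA-modifying enzyme, was also at 11.6. The TPT1 count lay above that of FTH1 and below that of TUBA1B with no overlap of intervals. Beside TPT1, the antisense gene TPT1-AS1 begins 132 bases beyond the interval and had 117 counts over 50.1 kb, or 2.33 per kb. The snoRNA gene SNORA31B, 425 bases away, had 12 counts in 134 bases.

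Ferritin and TPT1 mRNAs are known for elements at their 5′ ends that other proteins bind, which is why these ends are shown. Iron-regulatory proteins bind a hairpin with the loop letters CAGUGN in ferritin mRNAs, and TPT1 belongs to the mRNAs that start with a C and a run of pyrimidines. Of the 10 genes, 8 matched a RefSeq start-site table (GRCh38.p14), not ACTB and FTH1. Capitals mark CAGTGN in FTL, at chr19:48965329-48965358 on the plus strand, and the opening pyrimidine run in TPT1, at chr13:45341154-45341183 on the minus strand.
FTL: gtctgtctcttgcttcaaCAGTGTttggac
TPT1: CTTTTCCgcccgctcccccctccccccgag
CAGTGN, searched on the transcribed strand in the first 50 transcribed bases, was in 1 of the 8 genes and in 6.36% of all 35116 windows of the table. A C followed by at least 5 pyrimidines at the start site was likewise in 1 of the 8 and in 3.02% of all windows. The deposited table gives no position of reads within a gene, so these letters describe the mRNAs and not a site of CTCF.

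In order of counts per kb, ACTB stood first, followed by ACTG1, TUBB, GAPDH, PKM, ENO1, TUBA1B, FTL, TPT1 and FTH1. Neighbours whose intervals overlap were TUBB and GAPDH, ENO1 and TUBA1B, and FTL and TPT1. The highest value was 262 times the lowest. All 10 values exceeded the median of all listed genes, 1.78 counts per kb. Their intervals are short, with a median of 4.39 kb against 22.8 kb over all listed genes. With the floor of 6 counts, ACTB, FTL and ACTG1 could not have been below that median, so little can be read from it.

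As a contrast, 20 nuclear RNAs were taken, of which 11 were listed. The abundant mRNA genes had a median of 264 counts and 38.3 counts per kb, and the listed nuclear RNAs had a median of 37 counts and 1.71 per kb, in longer intervals (median 4.39 kb for the mRNA genes and 19.5 kb for the nuclear RNAs). Against genes of similar length the medians were 16.0 times and 1.64 times the group median. With counts at least 4 times that median there were 7 of 10 mRNA genes and 4 of 11 nuclear RNAs (36.4%), against 10.1% of all listed genes. The spread within each set was wide, and the sets overlap. Without genes that overlap another listed gene, the ratio of the medians per kb was 7.48 instead of 22.3. No test was made of the difference, since the genes are not replicates and RNA levels were not analysed here.

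The nuclear RNAs spanned the whole range of the table. ACTB had 829 counts per kb (772 to 889) and MALAT1, an RNA of nuclear speckles, had 781 (763 to 800), with overlapping intervals, although MALAT1 had 6801 counts and ACTB 786. Against genes of similar length MALAT1 was higher, at 309 times the group median, with ACTB at 60.5 times. ACTG1 at 158 per kb (144 to 173) was close to NEAT1, the RNA scaffold of paraspeckles, at 177 (159 to 196), which had 351 counts in a listed interval of 1.99 kb. FTX, of the X-inactivation centre, had 563 counts and PVT1, a long non-coding RNA beside MYC, had 512, over 328 and 96.4 kb. The FTX interval overlaps 10 other listed genes, JPX among them, so its count may hold their reads. The lowest listed were MIAT and HOTAIR with 6 counts each, below all 10 mRNA genes. FTH1 and FTL, with 3.16 and 12.7 counts per kb, were above KCNQ1OT1 at 0.338, FIRRE at 0.266 and JPX at 0.675 per kb. In their shorter intervals even the floor of 6 counts would have put both ferritin genes above KCNQ1OT1, FIRRE and JPX. By raw count, in intervals of 54.8 to 128 kb, these 3 had 31, 34 and 37, with counting intervals that overlap that of FTH1. Other nuclear RNAs went the other way. MALAT1 and NEAT1 were above both ferritin genes per kb. SCARNA10, with 18 counts in 0.248 kb, had 72.6 per kb and was also above them. For SCARNA10 this was fixed by its short interval and the floor of 6 counts, and its interval overlaps another listed gene. TUG1 at 10.0 per kb and PVT1 at 5.31 were above FTH1.

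**Figure D3:**
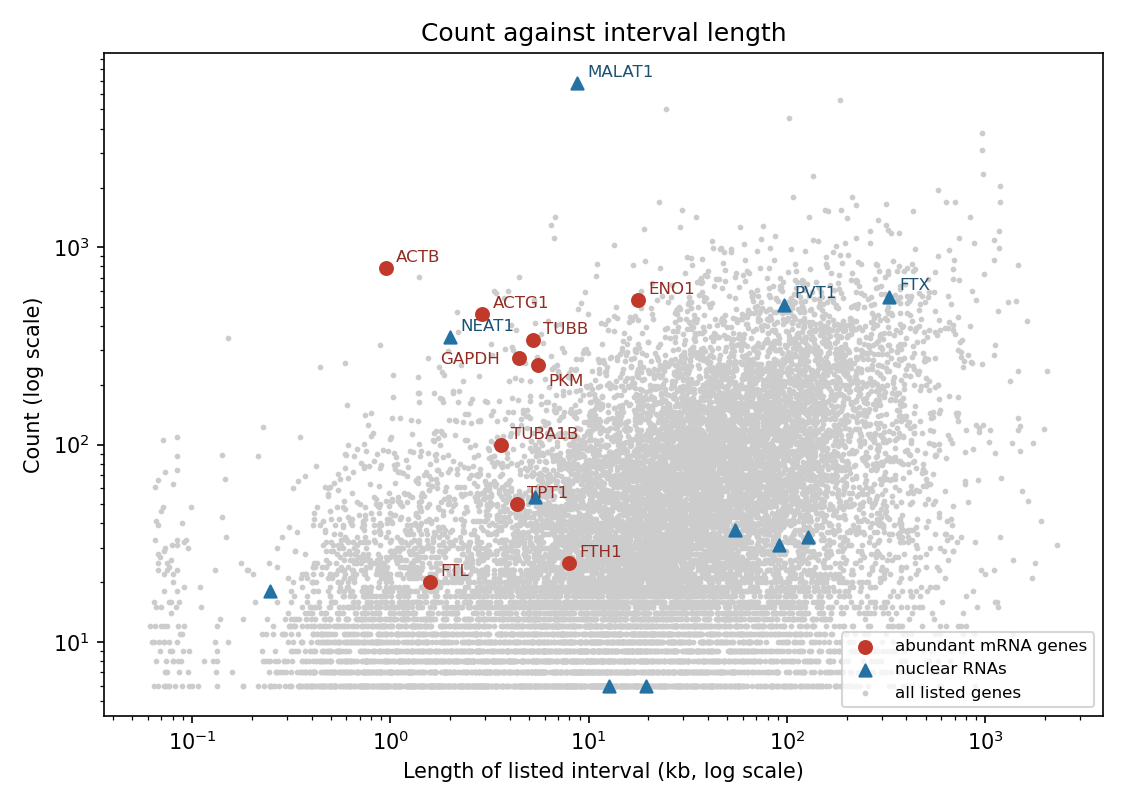
Count against length of the listed interval, both on log axes, for the 10 abundant mRNA genes (red), the 11 listed nuclear RNAs (blue triangles) and all 17201 listed genes (grey). ACTB lies at the upper left with 786 counts in 0.948 kb, and FTH1 and FTL lie among the bulk of genes of their length.

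Other genes of the same pathways, taken from lists, mostly stood lower for their length. Of 22 glycolysis genes 18 were listed, with a median of 55 counts and of 1.71 times the length-group median. The lactate and pyruvate carrier SLC16A1 had 143 counts, the phosphofructokinase PFKP 141, its regulator PFKFB3 116 and the lactate dehydrogenase LDHA 103. ENO2, the neuronal enolase, was lowest with 7. LDHA was the 1 gene of the 18 (5.56%) at 4 times the group median or more, with 4.12 times, against 10.1% of all listed genes. All 3 glycolytic members thus had more counts than every other listed gene of the pathway list.

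The actin list was the highest of these. Of 30 genes for other actins, actin-binding proteins and a few other cytoskeletal proteins, 26 were listed, with a median of 93 counts. Of the 26, 12 (46.2%) reached 4 times the group median, against 10.1% of all listed genes. Among the 12 were the myosin light chain genes MYL12A and MYL12B and the intermediate filament gene VIM. ACTN1 and ACTN4, for the actin crosslinkers alpha-actinin 1 and 4, had 986 and 531 counts, ACTR3 of the Arp2/3 nucleator had 463 and the tropomyosin gene TPM3 had 458. ACTG2, the gamma-actin of visceral smooth muscle, was lowest with 6. Per kb, ACTN1 had 9.36 counts over 105 kb, below both cytoplasmic actins.

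Of 24 genes for tubulins, their folding factors and microtubule proteins 19 were listed, with a median of 29 counts, and 2 (10.5%) reached the 4-fold level, near the 10.1% of all listed genes. These were TUBB6 and TUBB4B, another beta-tubulin, which was named after its values were seen. The tubulin folding cofactor TBCD had 376 counts over 191 kb, the microtubule-associated proteins MAP1B and MAP4 had 138 and 127, and the beta-tubulin TUBB6 had 131. STMN1, for the tubulin-binding stathmin, and TUBG2, a gamma-tubulin, had 6 each. TUBB, at 64.9 counts per kb, and TUBA1B, at 27.4, were above TUBB6 at 7.48 per kb. TUBB4B had 68 counts, or 27.3 per kb (21.2 to 34.6), level with TUBA1B (22.3 to 33.4).

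In the list of iron handling, 16 of 21 genes were listed, with a median of 43.5 counts, and 2 (12.5%) reached the 4-fold level, near the 10.1% of all listed genes. They were PCBP2 with 473 counts and PCBP1 with 246, which encode RNA-binding proteins that also deliver iron to ferritin. The zinc and iron importer SLC39A14 had 161 and ACO1, the iron-regulatory protein that binds the ferritin element shown above, had 125. TF, for transferrin, was lowest with 6. By raw count both ferritin genes were below the median of this list, whose intervals had a median length of 30.5 kb. Per kb both were above it, at 3.16 for FTH1 and 12.7 for FTL against a list median of 1.61. For FTL this was fixed by its short interval and the floor of 6 counts. For length the list median was 1.33 times the group median, between FTH1 at 1.25 and FTL at 1.54.

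**Figure D4:**
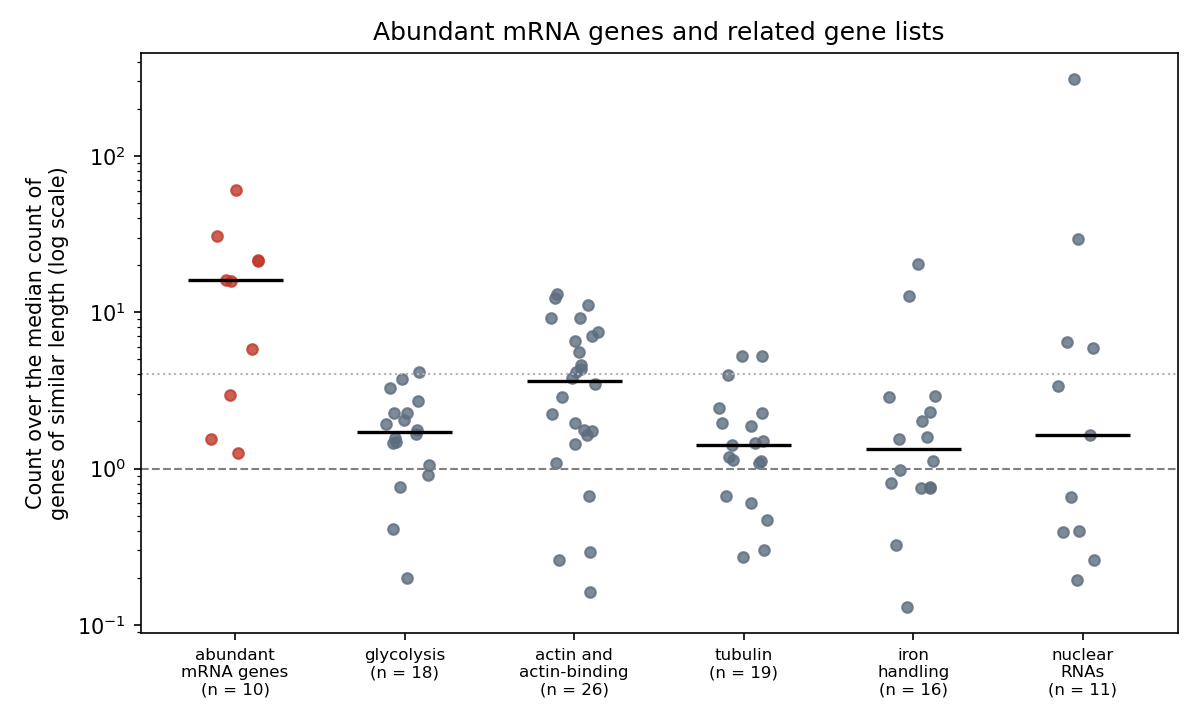
Count divided by the median count of genes of similar length, on a log axis, for the 10 abundant mRNA genes (red) and the listed genes of 5 other lists (grey). Bars are medians, the dashed line is 1 and the dotted line 4. The abundant mRNA genes have the highest median, 16.0, and the actin list follows at 3.63.

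Many of these mRNAs have pseudogenes, copies in the genome that arose from the mRNA by reverse transcription and resemble it closely. Such copies outside chromosome Y were counted by name, a choice made after the values had been seen. Across the 10 genes 38 copies were listed, with 1129 counts in all, and 13 of them overlap another listed gene whose reads they may hold. No identifier in the name table marked a copy of TUBA1B.

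By raw count, the copies of most genes were below the gene itself. ACTB had 786 counts and its 8 listed copies 347, of which ACTBP2 on chromosome 5 had 136. ACTG1 had 458 and its 9 copies 244, and GAPDH had 274 and its 9 copies 180. The copies that overlap no other listed gene had 274 counts for ACTB, 42 for ACTG1 and 131 for GAPDH. TUBB had 339 counts against 105 in TUBBP1, its 1 listed copy, and ENO1 had 541 against 92 in ENO1P1. PKM had 254 against 65 in 3 copies, and TPT1 had 50 against 6 in TPT1P4. Raw counts do not allow for interval length. Per kb, ENO1P1 was above ENO1, at 70.6 against 30.6. These values divide by unlike lengths, 1.30 kb for the copy and 17.7 kb for the gene. Counts per kb of coding sequence were not computed, so a denser signal in the copy cannot be read from them. TUBBP1 was near TUBB, at 63.8 against 64.9. TPT1P4 had 11.6 per kb and TPT1 11.5. The 6 counts of TPT1P4 (2.20 to 13.1) are the floor, so its value per kb could not have been lower and the match carries no weight. ACTBP2 was below ACTB, at 121 against 829, and PKMP1 below PKM, at 24.9 against 45.9.

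FTH1 had 25 counts, and its 5 listed copies had 65. Without the 2 copies that overlap another gene the copies still had 43. FTH1P8 on chromosome X, which overlaps no listed gene, alone had 29 counts (19.4 to 41.6), which does not differ from the FTH1 count beyond counting error. Per kb FTH1P8 was above FTH1, at 56.4 against 3.16. The FTH1P8 interval is only 0.514 kb and that of FTH1 7.91 kb. With the floor of 6 counts, any listed count would have put FTH1P8 above FTH1 per kb, so this order is not a result about the copy. FTL had 20 counts (12.2 to 30.9) and FTLP15, its 1 listed copy, had 25 (16.2 to 36.9), which overlap. Per kb FTLP15, over 0.532 kb, was at 47.0 and FTL at 12.7. FTLP15 lies over another listed gene, so no copy of FTL was left when such copies were set aside. Whether reads of the mRNA were assigned to the copies was not tested, as alignments were not used here.

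**Figure D5:**
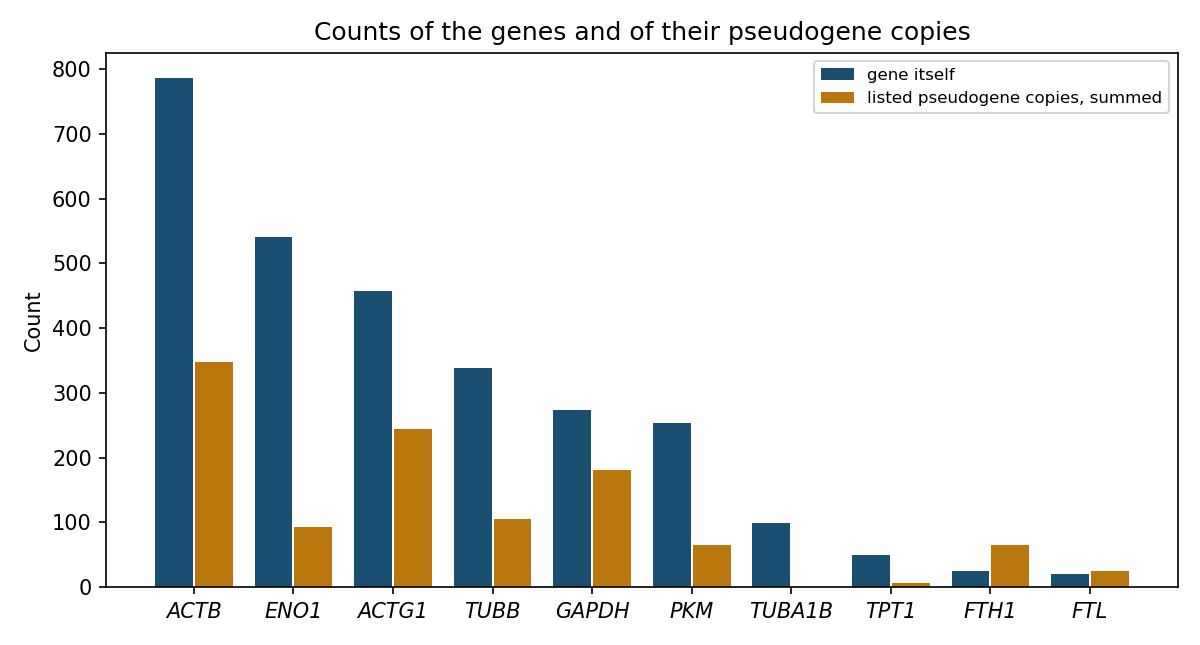
Counts of each gene (blue) and the summed counts of its listed pseudogene copies outside chromosome Y (orange), from the 1 merged sample. Counts are not divided by interval length. The gene is above its copies for ACTB (786 and 347) and below them for FTH1 (25 and 65), and for FTL (20 and 25) the counting intervals overlap.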

How the data were processed

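RNA crosslinked to CTCF in U2OS cells was sequenced after PAR-CLIP. The authors merged both replicates, per the labels, and deposited whole-number counts per Ensembl gene, not scaled for depth or length. Bowtie, bedtools and the hg19 build were used, per the submitters' processing notes, which as used here name no version or role. The lowest count is 6, so genes under that floor have no value. Symbols were matched by identifier for 16520 of 17201 genes. Interval length was taken as end minus start plus 1. Where 2 listed genes overlap, a read may enter both counts, and 40.8% of listed genes overlap another.

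Counts per kb, percentiles and ratios within 50 length groups, and exact 95% intervals were computed in Python 3.11.15 with SciPy 1.17.1. The ratio was also tried on simulated counts, whose spread was not fitted to these data. That trial checked the code and not the calls made here. With 1 merged sample no test between groups was made. The members and lists were chosen with earlier results of these data known. Named genes are the 10 members, listed genes within 1 kb of them, the 2 protein-coding genes nearest in counts per kb in the length group, and the 4 highest and the lowest of each list. One gene that this rule names is not reported here. KCNQ1OT1, FIRRE, JPX, TUG1, SCARNA10, EMC6, TUBB4B, MYL12A, MYL12B and the pseudogenes were named after their values were seen. Alternatives are given in the closing section.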

Additional observations from a re-analysis of the deposited data

How the results depend on the processing

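Leaving out genes that overlap another listed gene left 6 members and moved each of the 7 summary values. The number with 100 counts or more was 3 (19.5% of all genes kept) and with at least 4 times the length-group median also 3 (10.8%). The median was 152 counts and 21.6 per kb, the percentile for length 90.8, the ratio to the nuclear RNA median per kb 7.48 instead of 22.3, and the share of the summed count 0.226%. Leaving out intervals under 1 kb, and with them ACTB, gave 30.6 counts per kb, a ratio of 25.6 and a share of 0.158%. Both alternatives use fewer genes. Subtracting the counts of genes inside the members gave a median of 225 counts, and adding those of pseudogene copies gave 381.5. These last 2 alternatives were chosen after seeing the data. A minimum of 50 counts was reached by 8 members and by 37.3% of all listed genes, one of 200 by 6 and by 8.94%, and a 2-fold level by 8 and by 26.9%. With 10 length groups, with protein-coding genes only and with listed genes of at least 10 counts, the 4-fold level was reached by 7 members each time. The shares of all genes kept that reached it were 10.3%, 9.45% and 8.68% in that order. The median percentile for length was 98.8, 98.0 and 97.9, against 98.5 in the main setting. Counts per kb of coding sequence were not computed, since no protein lengths were used here, and leaving out a replicate was not run on the merged table. No paired analysis was possible because the replicates had no separate values in the table used. Depth limits FTL, FTH1 and the genes near the floor of 6 counts.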
